A study of Mus musculus with 27 samples.

Results

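The CpG methylome of control microglia was set against gene expression in control microglia, using 7 of the 27 samples of the series. One bisulfite library gave the methylated share of each CpG, and 6 RNA libraries gave the expression of each gene. A gene was analysed when its symbol matched a RefSeq gene on chromosomes 1 to 19 that had an annotated start and strand and a start within 1000 bases of the gene's edge. That left 15546 of the 24293 listed symbols, 13961 protein coding and 1585 long non-coding, on 18 chromosomes. Starts on chromosome 18 were not used here.

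The study examined mouse microglia in culture, the resident macrophages of the brain, some of them transduced with a factor labelled ND1, beside cultured cortical neurons. All 7 libraries used here came from C57BL/6 mice of genotype WT, from cortex at postnatal day 1, as primary cultured microglia with the treatment Control. RNA was taken at day 2 (3 libraries) and at day 7 (3 libraries) of the time label, and the bisulfite library carries no day. The labels give neither the medium of the control cells nor whether replicates were separate cultures, so p-values measure only the spread between these libraries, which may be technical. The methylome has no replicate, and its file gives no read numbers, so how many reads stand behind a CpG is unknown and levels carry no counting interval.

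DNA methylation in mammals falls mostly on the cytosine of CG dinucleotides (CpGs). Most of the genome is depleted of CpGs and methylated, while CpG islands, the CpG-dense stretches at the starts of housekeeping and developmental genes, are usually free of methylation whether or not the gene is transcribed. Methylation of a CpG-dense start is known as a mark of stable silencing, as at germline genes in somatic cells and at 1 parental copy of imprinted genes, and methylation within the transcribed body is a known feature of active genes.

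The bisulfite table listed 15343206 CpGs on chromosomes 1 to 19, with a mean level of 70.3% and a median of 82.5%. Of these, 12.3% were under 20% methylated and 73.1% at 60% or above. The RNA libraries summed to 679110 to 739688 FPKM (fragments relative to transcript length and to the library's mapped fragments), and each held 10706 to 11033 genes at 1 FPKM or above. Across genes, log2(FPKM + 1) correlated at 0.979 to 0.988 within a day and at 0.924 to 0.929 between the days. The label was checked against marker genes: the 8 microglia markers summed to 4194 to 4317 FPKM at day 2 and 7954 to 8243 FPKM at day 7, and 7 of them reached 1 FPKM in every library. The 5 myeloid markers, of which Lyz2 was the largest, had higher sums. These were 13195.6 to 13891.7 FPKM at day 2 and 15945.8 to 17197.5 FPKM at day 7. The sums of the lists for other cell types were lower. They were 14.4 to 18.5 FPKM for 5 neuronal markers (Rbfox3 and Syt1 under 1 FPKM throughout) and 8.10 to 17.6 FPKM for 5 oligodendrocyte markers. Astrocyte markers summed to 16.0 to 17.6 FPKM at day 2 and 56.5 to 61.7 FPKM at day 7, fibroblast and mural markers to 1.10 to 1.97 and 25.04 to 31.8 FPKM, and endothelial markers to 13.6 to 14.6 and 6.78 to 8.30 FPKM.

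The promoters of 6 genes show the kinds of start met below: a CpG-dense housekeeping start, a CpG-poor microglial start, an interferon-responsive start, a methylated start of a strongly expressed gene, a methylated germline start and an unmethylated start of a weakly expressed neuronal regulator. Each is the 250 bases before the annotated start in RefSeq (GRCm38.p6, mm10), written 5′ to 3′ on the gene's strand, with the CpGs in capitals. Isg15 was chosen after its values were seen. The positions are chr9:78481725-78481974 (minus strand) for Eef1a1, chr3:59262986-59263235 (minus) for P2ry12, chr4:156200819-156201068 (minus) for Isg15, chr17:35176053-35176302 (minus) for Aif1, chr17:50293621-50293870 (minus) for Dazl and chr2:79456637-79456886 (minus) for Neurod1.
Eef1a1: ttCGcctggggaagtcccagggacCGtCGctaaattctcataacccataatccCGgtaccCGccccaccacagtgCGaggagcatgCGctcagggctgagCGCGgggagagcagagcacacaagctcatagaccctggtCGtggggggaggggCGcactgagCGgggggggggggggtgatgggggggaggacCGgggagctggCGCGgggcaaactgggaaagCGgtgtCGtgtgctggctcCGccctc
P2ry12: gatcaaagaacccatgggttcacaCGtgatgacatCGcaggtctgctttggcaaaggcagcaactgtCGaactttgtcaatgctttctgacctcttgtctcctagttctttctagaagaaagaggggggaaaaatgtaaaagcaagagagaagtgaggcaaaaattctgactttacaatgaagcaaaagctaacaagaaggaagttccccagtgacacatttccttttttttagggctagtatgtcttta
Isg15: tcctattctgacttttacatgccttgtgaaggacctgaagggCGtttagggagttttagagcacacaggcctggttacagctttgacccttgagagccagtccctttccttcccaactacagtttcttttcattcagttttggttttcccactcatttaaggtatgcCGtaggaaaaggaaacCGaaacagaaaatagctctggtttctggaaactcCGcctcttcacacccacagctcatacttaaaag
Aif1: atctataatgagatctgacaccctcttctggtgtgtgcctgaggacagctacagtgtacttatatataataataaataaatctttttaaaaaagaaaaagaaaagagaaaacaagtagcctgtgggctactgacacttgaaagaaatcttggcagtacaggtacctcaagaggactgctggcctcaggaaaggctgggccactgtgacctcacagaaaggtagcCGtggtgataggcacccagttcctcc
Dazl: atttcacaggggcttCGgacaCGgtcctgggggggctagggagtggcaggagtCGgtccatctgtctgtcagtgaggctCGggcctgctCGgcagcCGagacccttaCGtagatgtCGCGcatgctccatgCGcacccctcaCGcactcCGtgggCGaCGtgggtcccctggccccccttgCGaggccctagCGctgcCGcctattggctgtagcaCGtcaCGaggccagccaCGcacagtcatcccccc
Neurod1: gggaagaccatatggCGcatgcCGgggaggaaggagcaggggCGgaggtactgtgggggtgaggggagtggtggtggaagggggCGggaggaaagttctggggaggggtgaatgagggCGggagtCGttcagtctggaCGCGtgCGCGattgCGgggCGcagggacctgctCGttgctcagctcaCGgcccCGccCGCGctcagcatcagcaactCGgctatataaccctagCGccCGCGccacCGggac

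Eef1a1, a translation elongation factor gene, holds 18 CpGs here, and the 9 with a listed level lay between 0% and 3.33%. The listed ones are at -248 to -148 bases from the start, and those at -111 to -7 bases have no value. P2ry12, the purinergic receptor used as a microglia marker, holds 3 CpGs, at 0%, 0% and 4.17%. Isg15, a ubiquitin-like interferon-induced gene, holds 4 CpGs, at 13.04%, 0%, 12.5% and 19.23% from 5′ to 3′. Aif1, which encodes the microglia marker IBA1, holds 1 CpG, at 88.9%. Dazl, a germ cell RNA-binding protein gene, holds 20 CpGs, all listed, at 86.7% to 100%. Neurod1, a proneural transcription factor gene, holds 22, of which the 17 listed lay between 0% and 6.25%. Dazl and Neurod1 are thus near opposite ends of the methylation scale with a like number of CpGs. Their expression differed too. Dazl had 0.0119 to 0.0459 FPKM over the 6 libraries, and Neurod1 was weak but above 1 FPKM in each, at 1.04 to 2.16 FPKM.

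The level of a start was taken as the mean of the listed CpGs from 500 bases before to 500 bases after it, given when at least 10 CpGs were listed, which held for 12120 genes. A start was called low under 20%, high at 60% or above, and middle in between. Starts were mostly at one end or the other: 9520 genes (78.5%) had a low start, 840 (6.93%) a middle one and 1760 (14.5%) a high one. Genes were placed in 6 expression classes by the mean of the day means: 3235 genes listed at 0 in all 6 libraries, 4695 above 0 and under 1 FPKM, and the rest in 4 equal classes of 1904 genes, Q1 (lowest) to Q4 (highest), with bounds at 5.16, 13.6 and 34.8 FPKM. The genes listed at 0 include 814 olfactory and 254 vomeronasal receptor genes. Over all analysed members, these families had medians of 4 and 2 CpGs around the start.

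Expressed genes mostly had starts with little methylation. The level needs at least 10 listed CpGs, which 1041 of the 3235 genes listed at 0 and 1815 of the 1904 in Q4 had. Pooled over these starts, the medians differed most between genes listed at 0 and genes under 1 FPKM. That pattern did not hold at every CpG number, as the strata further on show. The median start level was 71.5% (n = 1041) for genes listed at 0, 8.51% (n = 3742) under 1 FPKM, and 1.78%, 1.19%, 1.14% and 1.24% in Q1 to Q4 (n = 1798, 1861, 1863 and 1815). High starts made up 64.0% of the genes listed at 0, 25.01% of those under 1 FPKM and 4.62%, 1.505%, 1.23% and 1.32% of Q1 to Q4. Low starts made up 20.9%, 62.3%, 90.1%, 96.2%, 97.5% and 96.0% in the same order. The share of low starts among genes listed at 0 depended on the window and the CpG minimum, at 41.3% with 250 bases on each side, 11.4% with 1000 bases, 9.27% with at least 3 CpGs and 48.7% with at least 20, and was below that of Q4 in each case. Across the 12120 genes, the Spearman correlation of start level and mean FPKM was -0.58, and among the 7337 genes at 1 FPKM or above it was -0.11. These are descriptions across genes that share 1 methylome, and genes are not independent replicates, so they carry no p-value.

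Each RNA library alone gave nearly the same relation. The Spearman correlation for the start was -0.582, -0.580 and -0.579 in the day 2 libraries and -0.574, -0.576 and -0.576 in the day 7 libraries. The day 2 and day 7 values did not overlap, and the difference between the day means was 0.00517. The exact two-sided permutation test gave p = 0.1, the smallest that 3 against 3 libraries allow (adjusted over 3 such comparisons, p = 0.1). With a minimum of 3 CpGs the order of the days was the reverse, with means of -0.659 at day 2 and -0.664 at day 7. By chromosome, the Spearman correlation ranged from -0.65 to -0.50 over the 18 chromosomes.

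**Figure D1:**
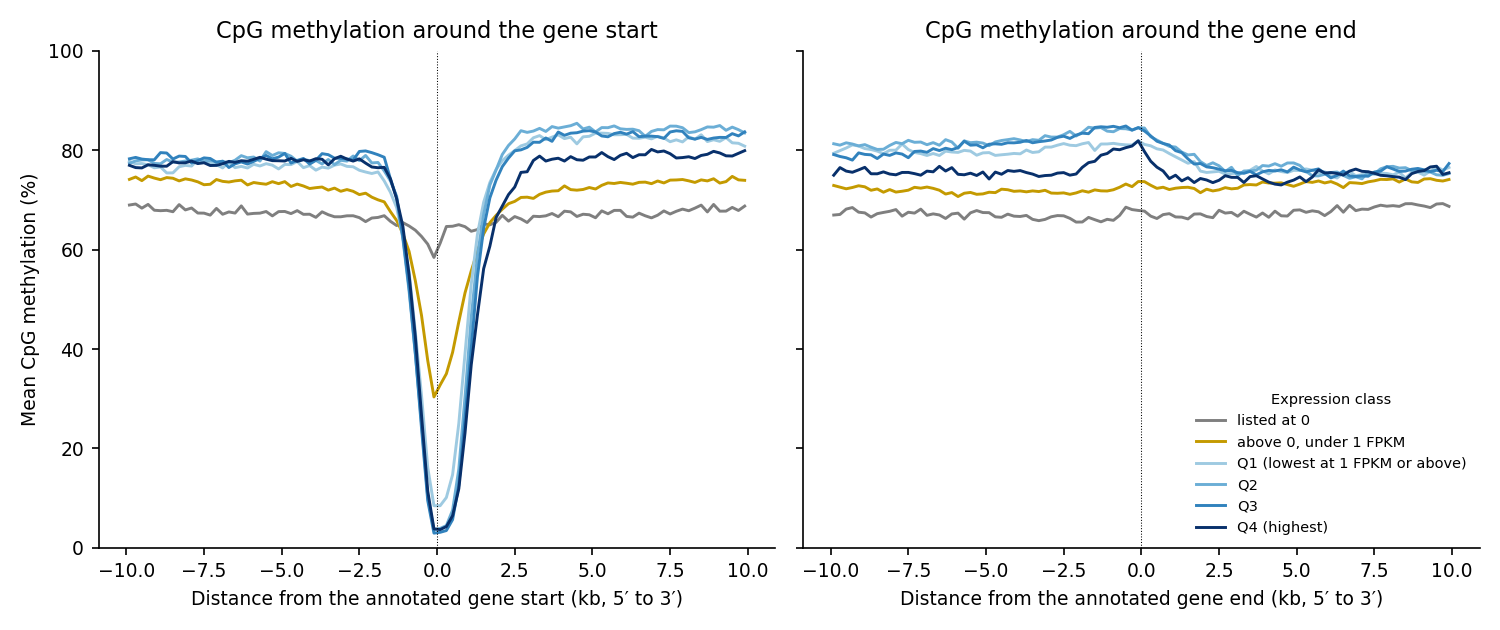
Mean CpG methylation (%) in bins of 200 bases against distance in kb from the annotated gene start (left) and gene end (right), 1 line per expression class, from 1 bisulfite library. In the bin just before the start the classes run from 58.4% for genes listed at 0 down to 2.96% for Q3, and at the gene end the lines of expressed genes lie above those of silent genes.

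The profile of levels by distance showed how sharp the dip was. In the profiles, levels were averaged within each gene and then over genes. In the 200 bases just before the start, the mean was 58.4% in genes listed at 0, 30.4% in genes under 1 FPKM and 8.47% in Q1. Q2 to Q4 had 3.64%, 2.96% and 3.82%. From 1000 to 1199 bases into the gene, the means ran from 53.1% (Q1) through 46.4% and 40.2% to 36.8% (Q4). From 2000 bases inward, Q1 and Q2 stood at 77.9% and 79.1% and Q4 at 68.8%. The edge inside the gene thus came later with higher expression, while in the 200-base bin that begins 1000 bases upstream of the start Q1 to Q4 stood at 55.6%, 51.6%, 52.3% and 54.9%.

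The number of CpGs around a start went with both measures, so the classes were compared at like CpG number. The Spearman correlation of the CpG number with FPKM was 0.63 over 15546 genes. Starts with 50 or more CpGs were low in 99.2% of 6783 genes, and in 95.3% of the 106 such genes that were listed at 0. With 20 to 49 CpGs, the median start level was 56.7% (quartiles 11.9% and 79.6%, n = 319) at 0 and 2.40% (1.12% and 5.64%, n = 421) in Q4. With 10 to 19 CpGs, genes listed at 0 and under 1 FPKM had like medians, 76.3% (n = 616) and 74.5% (n = 938), and the medians of Q1 to Q4 went down class by class, at 51.6%, 33.7%, 27.0% and 16.4% (n = 148, 78, 63 and 111). With 3 to 9 CpGs, the medians at 0 and under 1 FPKM were 69.7% (n = 1397) and 74.8% (n = 787), and Q4 had 29.3% (n = 80). The Spearman correlation within these strata was 0.01 for 3 to 9 CpGs (n = 2426), -0.30 for 10 to 19 (n = 1954), -0.57 for 20 to 49 (n = 3383) and -0.34 for 50 or more (n = 6783). In the sparsest stratum the first 4 classes differed little in their medians, from 69.7% to 76.7%, and Q3 and Q4 lay lower, at 48.7% and 29.3%.

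**Figure D2:**
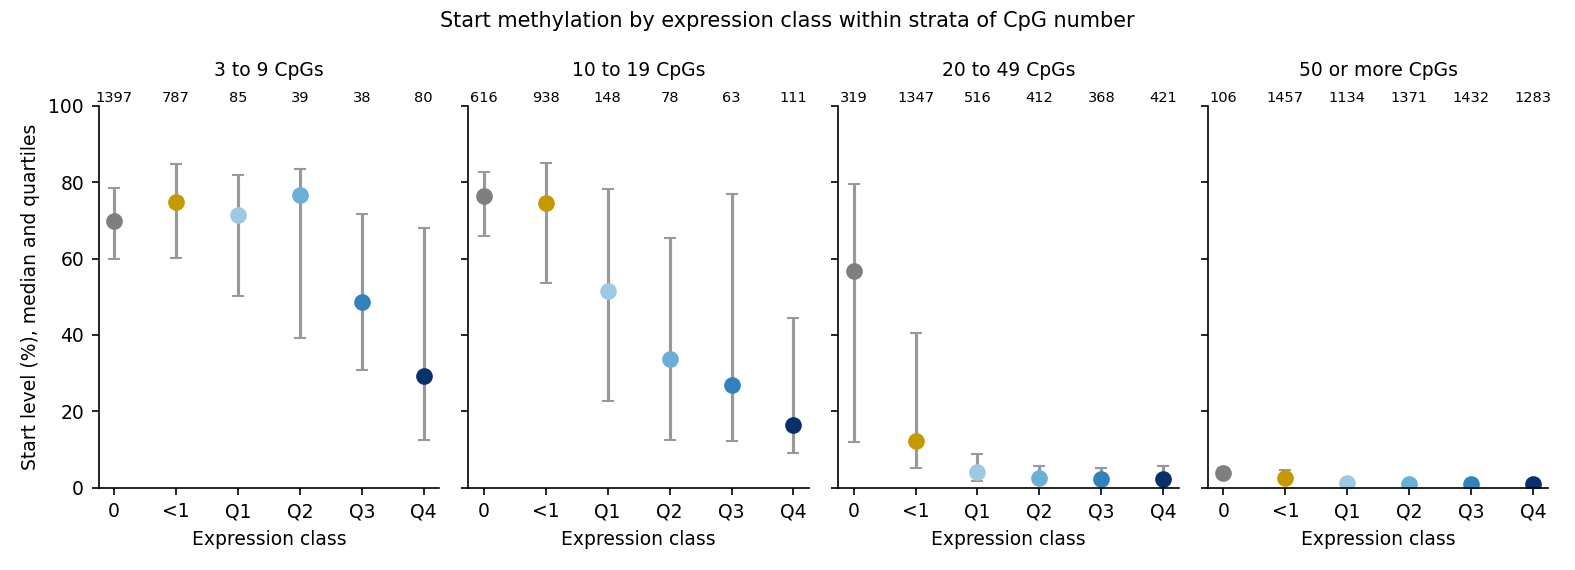
Median start level (%) with quartile bars for each expression class (0, listed at 0; <1, under 1 FPKM; Q1 to Q4, equal classes at 1 FPKM or above), in 4 strata of CpG number within 500 bases of the start; numbers along the top are genes. At 50 or more CpGs every class lies near the floor, and at 20 to 49 CpGs the genes listed at 0 stand apart at 56.7%.

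Gene bodies showed the opposite order at the silent end. The body was taken from 2000 bases after the start to the annotated end, in genes of at least 5000 bases with at least 20 CpGs (11460 genes). Its median level was 71.6% for genes listed at 0 (n = 1250), 75.8% under 1 FPKM (n = 3632), and 87.2%, 88.7%, 88.5% and 86.5% in Q1 to Q4. The Spearman correlation with FPKM was 0.52 over all genes, 0.504 to 0.524 over the single libraries, and -0.05 among the 6578 genes at 1 FPKM or above. Part of the difference lay outside the gene: the flanks, 5000 to 15000 bases beyond each end, had medians of 69.3%, 73.3%, 76.0%, 76.9%, 75.9% and 73.8%. The body exceeded its own flanks by a median of 0.24 percentage points in genes listed at 0, 1.28 under 1 FPKM and 8.93, 9.95, 10.6 and 9.99 in Q1 to Q4. A body above its flanks was found in 51.3% and 56.1% of the classes at 0 and under 1 FPKM and in 80.3%, 84.99%, 82.4% and 77.4% of Q1 to Q4.

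Among expressed genes, the median body level, counted from 2000 bases after the start, was highest at intermediate expression. In 10 equal groups of the genes at 1 FPKM or above, the median body level was 85.3% in the lowest group (median 1.51 FPKM), 88.8% in the fifth and the sixth group (11.4 and 16.0 FPKM) and 84.6% in the highest (166 FPKM). The quartiles were 78.2% and 89.8% in the lowest group, 85.3% and 91.0% in the fifth and 77.0% and 88.9% in the highest, so the groups overlapped widely. The lower level at high expression lay towards the start. With the gene cut into 40 equal parts, part 10 averaged 83.0% in Q1, 84.7% in Q2 and 78.1% in Q4. Part 30 averaged 85.4%, 87.9% and 87.0%. The Spearman correlation over all genes was 0.46, 0.50 and 0.60 among the shortest, the middle and the longest of 3 equal groups by gene length (3820 genes each), and in each of them the genes listed at 0 had the lowest median, 72.5%, 70.8% and 70.9%.

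**Figure D3:**
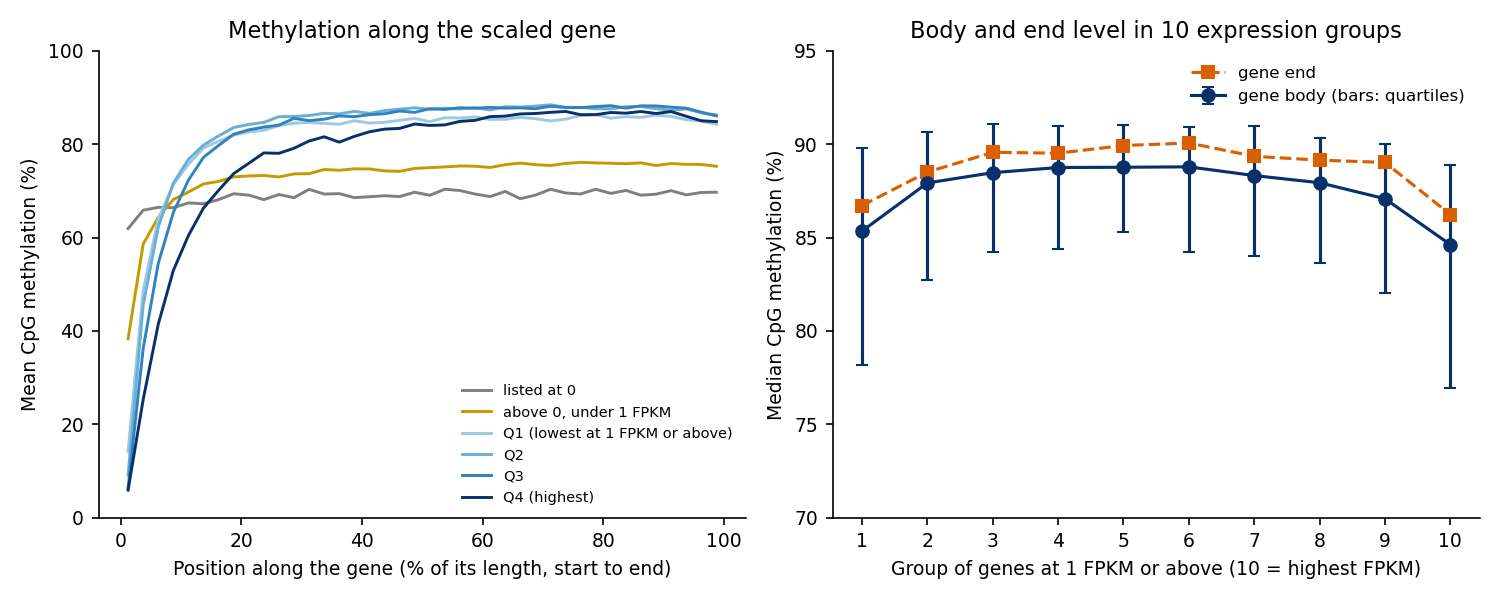
Left, mean CpG methylation (%) in 40 equal parts from gene start to gene end, 1 line per expression class. Right, median body level with quartile bars and median gene end level (%) for 10 equal groups of the genes at 1 FPKM or above, on an axis from 70 to 95%; the median body level is 88.8% in the middle groups, 85.3% in the first and 84.6% in the last.

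The 10 genes with the highest and the 10 with the lowest body level among genes at 10 FPKM or above show the range; positions given with genes run from the annotated start to the end in mm10, lower coordinate first. Lamtor5, a subunit of the Ragulator complex on lysosomes (chromosome 3, 107278858 to 107284082), had a body level of 96.2% and a start of 6.54%, with 159, 160.4 and 159 FPKM at day 2 and 144, 131 and 125 FPKM at day 7. Pigs, of the GPI transamidase complex, and Ppil3, a cyclophilin, had bodies at 95.6% with starts at 1.19% and 0.688%. At the other end, Irf2bp2, a transcriptional corepressor gene (chromosome 8, 126588296 to 126593986), had a body at 4.80% and a start at 1.00%, with 27.8, 26.2 and 27.3 FPKM at day 2 and 23.9, 22.8 and 21.8 FPKM at day 7. Brd2, a bromodomain protein gene, had 16.4%, Tgif1, a homeobox repressor gene, 18.2%, and Gpx4, a lipid peroxidase gene, 23.5%. Their gene ends were methylated, at 89.9%, 90.8% and 87.8%, while the end of Irf2bp2 was at 36.1%. The body of Gpx4 was counted from its outermost start and takes in another listed start with a low level, given further on. Gm21188 was also among the lowest bodies (11.1%), and no CpG was listed around its start.

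Gene ends were methylated in every class and carried a weaker form of the body's order. Within 500 bases of the annotated end, with at least 5 CpGs (11438 genes), the medians were 74.3%, 80.2%, 88.1%, 89.6%, 89.6% and 88.0% from genes listed at 0 to Q4. The Spearman correlation with FPKM was 0.34, and -0.01 among the 6152 genes at 1 FPKM or above. Past the end the level of expressed genes fell away: Q2 averaged 84.5% in the first 200 bases past the end and 76.9% from 2000 bases past it, and genes listed at 0 averaged 67.7% and 66.7%.

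Housekeeping and energy genes had the most uniform starts. All 17 housekeeping genes with a start level were low, with a median of 0.985% and a highest value of 5.34% (Rps3, a ribosomal protein gene), beside 78.5% low and a median of 2.52% over all genes. All 8 oxidative phosphorylation genes were low, with a median of 0.965%. Eef1a1 had a start at 0.624% with 4838, 4867 and 4891 FPKM at day 2 and 6199.9, 5621 and 5798 FPKM at day 7, and Gapdh, a glycolytic enzyme gene, had the lowest start of the list, 0.288%. Their low stretch, measured from the start to the first 200-base bin at 50% or above on each side, had a median of 2600 bases.

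Transcription factors of the myeloid lineage had starts near those of housekeeping genes, with 13 of 14 low and a median of 1.04%. Irf8, required for microglial development, had a start at 0.703% over 69 CpGs, with 93.8, 95.7 and 93.3 FPKM at day 2 and 136, 136 and 129 FPKM at day 7. Cebpa, a granulocyte and macrophage regulator, had 1.22% over 100 CpGs and Irf5, an activator of inflammatory genes, 0.674% over 86. The exception was Mef2c, a MADS-box factor of microglia and neurons, at 91.0% on 12 CpGs at its outermost start, with 6.50 to 13.3 FPKM over the libraries. RefSeq lists 3 starts for Mef2c, and the lowest of them was at 5.05%.

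Microglial and other myeloid effector genes had fewer CpGs and higher median levels at their starts than all genes together. Of 14 microglia identity genes, 11 were low and 3 high, so that the low share, 78.6%, was that of all genes (78.5%). Their median start level was 10.0% against 2.52% over all genes, and the list had a median of 14 CpGs per start against 43 over all genes. At like CpG number the list was on the low side. Starts with 10 to 19 CpGs had a median of 72.2% with 12.5% low over all classes, and 16.4% with 54.1% low in Q4. C1qb and C1qc, complement subunits, had starts at 8.14% and 7.57% with at least 2916 and 3377 FPKM in every library. Mertk, a receptor for apoptotic cells, was lowest at 0.934% over 45 CpGs, and P2ry12 stood at 0.976% over 12. Trem2, a lipid-sensing receptor (chromosome 17, 48346401 to 48352276), had 15.7% over 12 CpGs, and Cx3cr1, the fractalkine receptor, 11.9% over 13. The high ones were Aif1 at 81.4%, Sparc, a matrix glycoprotein gene, at 77.2% and Slc2a5, a fructose transporter gene, at 76.3%. Slc2a5 had at most 0.222 FPKM in any library. Of 7 pan-myeloid genes 5 were low and 2 middle, and with at least 3 CpGs 10 of 12 were low. The middle ones were Ctss, a lysosomal protease gene, at 20.9% with 3923 to 4824 FPKM, and Itgam, the integrin CD11b gene, at 32.2% with 18.8 to 40.2 FPKM. Lyz2, the macrophage lysozyme gene and the most expressed of these, had 15.5% on only 4 CpGs.

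Interferon-stimulated genes had narrow dips, and 6 of 13 starts were not low although all 16 analysed members exceeded 1 FPKM. The median start level was 14.2%, with 7 low, 2 middle (Isg15 and Rsad2) and 4 high (Ifi44, Oas3, Oasl1 and Oasl2). Averaged over the CpGs of the list, the level was 13.8% within 100 bases of the start, 13.2% from 100 to 300 bases, 37.9% from 300 to 500 bases and 51.9% from 500 to 1000 bases. Housekeeping genes had 0.93%, 0.924%, 2.49% and 8.10% at the same distances, and all analysed genes 6.77%, 7.61%, 11.3% and 23.6%. Isg15 had 1459, 1394 and 1514 FPKM at day 2 and 464, 389 and 419 FPKM at day 7, with a start level of 36.1% over 12 CpGs, above each of the 4 CpGs in the printed promoter. Rsad2, an antiviral radical-SAM enzyme gene, had 44.4% over 15 CpGs with 896 to 927 FPKM at day 2 and 170.5 to 191 FPKM at day 7. The 4 members with 40 or more CpGs had low starts. Stat2, a transducer of interferon signals, had 1.99% over 49 CpGs, Ifih1, a sensor of viral RNA, 3.06% over 41, and Bst2, the tetherin gene, 2.68% over 40. With 250 bases on each side, 77.8% of the 9 members that kept 10 CpGs were low, against 53.8% of 13 with 500 bases.

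Cytokine and chemokine genes were the most mixed of the immune lists, with 5 low, 3 middle and 2 high of 10 and a median of 19.03%. The low share was 80% of 5 genes with 250 bases on each side and 23.1% of 13 genes with 1000 bases. Ccl3, a chemokine gene, had 6.52% with 362 to 473 FPKM, and Tnf 7.35% with 15.9 to 30.3 FPKM. The 2 high ones were Cxcl1, a neutrophil chemokine gene, at 87.6% and Il12b, a subunit of interleukin-12 and interleukin-23, at 64.2%. Cxcl1 had at most 1.09 FPKM and Il12b at most 0.661 FPKM in any library. Il1b, with 48.4 to 52.4 FPKM at day 2 and 3.14 to 3.60 FPKM at day 7, had 70.4% on 7 CpGs, under the minimum of 10.

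**Figure D4:**
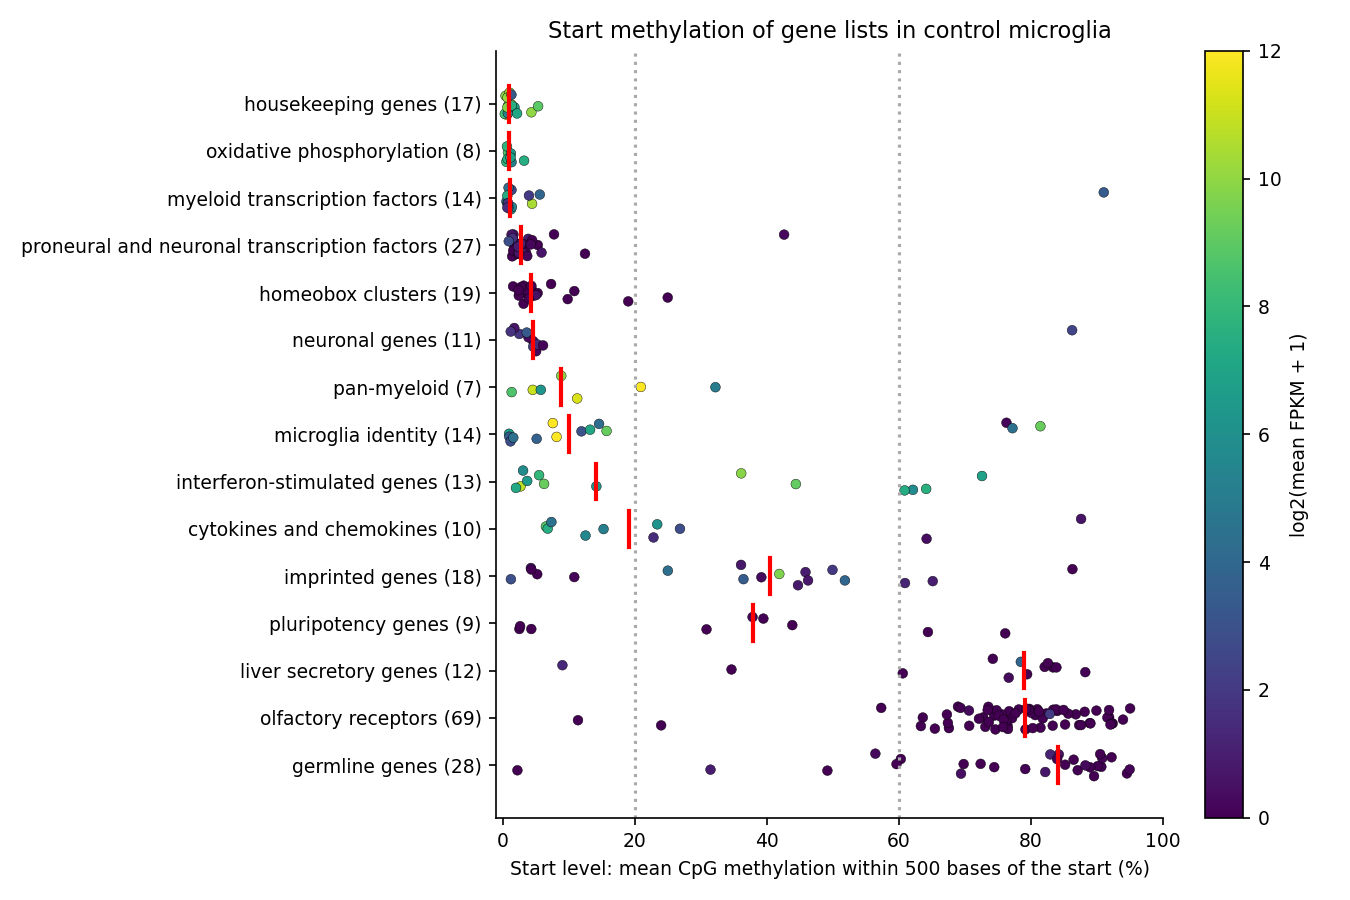
Start level (%) of each gene with at least 10 CpGs (points, coloured by log2(mean FPKM + 1); vertical jitter has no meaning) in 15 gene lists, with the number of genes in brackets, the list median as a red bar and the 20% and 60% limits dotted. Proneural and homeobox genes sit at the low end with little expression, interferon-stimulated genes spread from 1.99% to 72.6%, and germline genes cluster at the high end.

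Developmental regulators of other lineages mostly had low starts with little or no expression, and their low stretches were wide. Of 27 proneural and neuronal transcription factors, 26 were low and 1 middle, with a median start of 2.67% and a median expression of 0.125 FPKM. Of the 29 analysed members of that list, 5 reached 1 FPKM and 5 were listed at 0. All but 1 of 19 homeobox cluster genes were low (median 4.32%), and 15 of them were listed at 0 in every library. Of 17 lineage transcription factors of other tissues, 14 were low and 3 high, with a median of 3.56% and a highest value of 89.9%. Their high share, 17.6%, was above the 14.5% over all genes, and the low stretch of their low starts had a median of 10600 bases. Eomes, a T-box factor of intermediate progenitors, had 1.41% over 43 CpGs and was listed at 0 in 4 libraries and at 0.0198 and 0.0261 FPKM in the others. Sox11, a factor of young neurons, had 1.31% over 100 CpGs with 0.241 to 0.906 FPKM. The middle one was Myt1l, a neuronal repressor gene, at 42.6% over 11 CpGs, for which RefSeq lists 5 starts, the lowest at 10.4%. The low stretch of low starts had a median of 10800 bases in the proneural list and 10700 bases in the homeobox list, against 2000 bases over all low starts. Their CpGs were still at 5.41% and 6.06% from 500 to 1000 bases, and the median body level was 26.7% (13 genes) and 10.1% (5 genes) against 83.0% over all bodies.

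Wide low stretches took the greatest share of low starts among genes listed at 0, and were most numerous among genes under 1 FPKM. The stretch reached 6000 bases or more in 76 genes (34.9%) of those listed at 0, in 143 (6.13%) of those under 1 FPKM and in 17 (1.05%), 10 (0.559%), 12 (0.66%) and 27 (1.55%) of Q1 to Q4. The median was 3200 bases for genes listed at 0, 2000 bases in the next 3 classes and 2200 bases in Q3 and Q4. The 10 widest among genes under 0.1 FPKM in all libraries were Barhl2, Dlx6os2, Hand2, Pax6os1, Pnky, Hmx1, Uncx, Cdx2, Tfap2d and Hmx2, of which 7 encode developmental transcription factors. Barhl2, a homeobox gene of retina and spinal cord (chromosome 5, 106452523 to 106458166), was low up to the search limit of 10000 bases on both sides, with a start at 2.30%, a body at 4.40% and an end at 6.52%. Cdx2, a homeobox gene of intestine and trophoblast, was listed at 0 in every library, with 3.92%, 4.65% and 3.02% at the same places over a stretch of 18400 bases. Pax6, the paired-box eye and forebrain regulator, had 0.353 to 0.692 FPKM, a start at 5.86%, a body at 15.4% and a stretch at the search limit.

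Germline genes were the reverse: starts with a CpG number usual for all genes that were mostly methylated. Of 28 starts 23 were high, 4 middle and 1 low, with a median of 84.1% and a median of 42 CpGs, near the 43 over all genes. Dpep3, a testis dipeptidase gene, was highest at 94.9% over 42 CpGs, Dazl had 94.5% over 69, and Sycp3, a synaptonemal complex gene, 82.2% over 42. Zpbp2, a zona pellucida binding protein gene, was the low one, at 2.20% over 58 CpGs with at most 0.0634 FPKM. Ddx4, a germ cell helicase gene, was the member at 1 FPKM or above, with 1.89, 2.39 and 2.05 FPKM at day 2 and 0.121, 0.25 and 0.432 FPKM at day 7, and its start was at 82.9% over 74 CpGs. Of the 69 olfactory receptor genes with 10 CpGs, 66 were high (median 79.2%), and 10 of 12 liver secretory genes were high (median 78.9%). Olfactory receptor starts are CpG-poor, with a median of 4 CpGs over the 901 analysed.

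Imprinted genes held intermediate values, with 10 middle, 5 low and 3 high of 18 and a median of 40.5%, while middle starts made up 6.93% of all genes. Gnas, which encodes a G-protein alpha subunit, had 41.9% over 45 CpGs at its outermost start and 728 to 906 FPKM, and the lowest of its 4 starts was at 1.11%. Nnat, a neuronal proteolipid gene, had 51.8% over 69 CpGs with 8.69 to 18.4 FPKM. Pluripotency genes were also often intermediate, with 4 of 9 middle. Pou5f1, the OCT4 gene, had 39.5% over 30 CpGs, Nanog 37.8% over 18 and Zfp42, the REX1 gene, 43.8% over 23, and none of them passed 0.202 FPKM in any library. The genes of DNA methylation itself were low in 10 of 12 cases. Dnmt3l, a cofactor of germ cell methylation with at most 0.457 FPKM, was high at 72.6%, and Dnmt1, the maintenance methyltransferase gene with 17.9 to 23.0 FPKM, had 98.7% on 4 CpGs at its outermost start and 1.00% at the lowest of its 3 starts.

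A high start did not exclude strong expression, and for most such genes a low stretch lay elsewhere in or near the gene. Of 1760 genes with a high start, 158 were at 1 FPKM or above. Among the 74 of these with 2 or more listed starts, 54 (73.0%) had another start that was low, against 2 of 43 (4.65%) among high-start genes listed at 0. A window under 20%, reaching 500 bases to each side of its centre and searched from 5000 bases before the start to the gene's end, was found in 94 of the 158 (59.5%) and in 62 of 665 (9.32%) of those listed at 0. The search moved in steps of 200 bases and used windows with at least 10 listed CpGs, so narrower dips and CpG-poor stretches could be missed. Expressed high-start genes were longer (median 15161 against 6947 bases), and in genes of 2000 to 20000 bases the shares were 48.2% and 9.78%. At 10 FPKM or above it was found in 42 of 56 genes.

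The most expressed high-start genes fell into these kinds. Rps27rt, an intronless copy of a ribosomal protein gene (chromosome 9, 114982366 to 114982739), had 1811, 1767 and 1895 FPKM at day 2 and 2697, 2923 and 3207 FPKM at day 7 with a start at 90.8% and no window under 81.9%. Its expression is uncertain, since its reads may be shared with Rps27, which had 5.84 to 9.53 FPKM at day 2 and 144 to 971 FPKM at day 7. Aif1 had 608, 601 and 643 FPKM at day 2 and 618, 517 and 560.0 FPKM at day 7, ranges that overlap. Its annotated start was at 81.4%, and the single CpG printed above was at 88.9%, but a window centred 3166 bases into the gene was at 7.63% over 14 CpGs, and the body at 36.1% was among the less methylated. Gpx4 (chromosome 10, 80047166 to 80056439) had a start at 83.7% and a window at 0.615% 6500 bases further in, where another of its 4 starts is listed at 0.629%. Psma6, a proteasome subunit gene, Bri3, a lysosomal membrane protein gene, Pmp22, a myelin and membrane protein gene, and Rpl22, a ribosomal protein gene, had outermost starts at 94.98%, 89.6%, 70.8% and 88.1% and other starts at 0.734%, 0.715%, 1.42% and 0.79%.

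**Figure D5:**
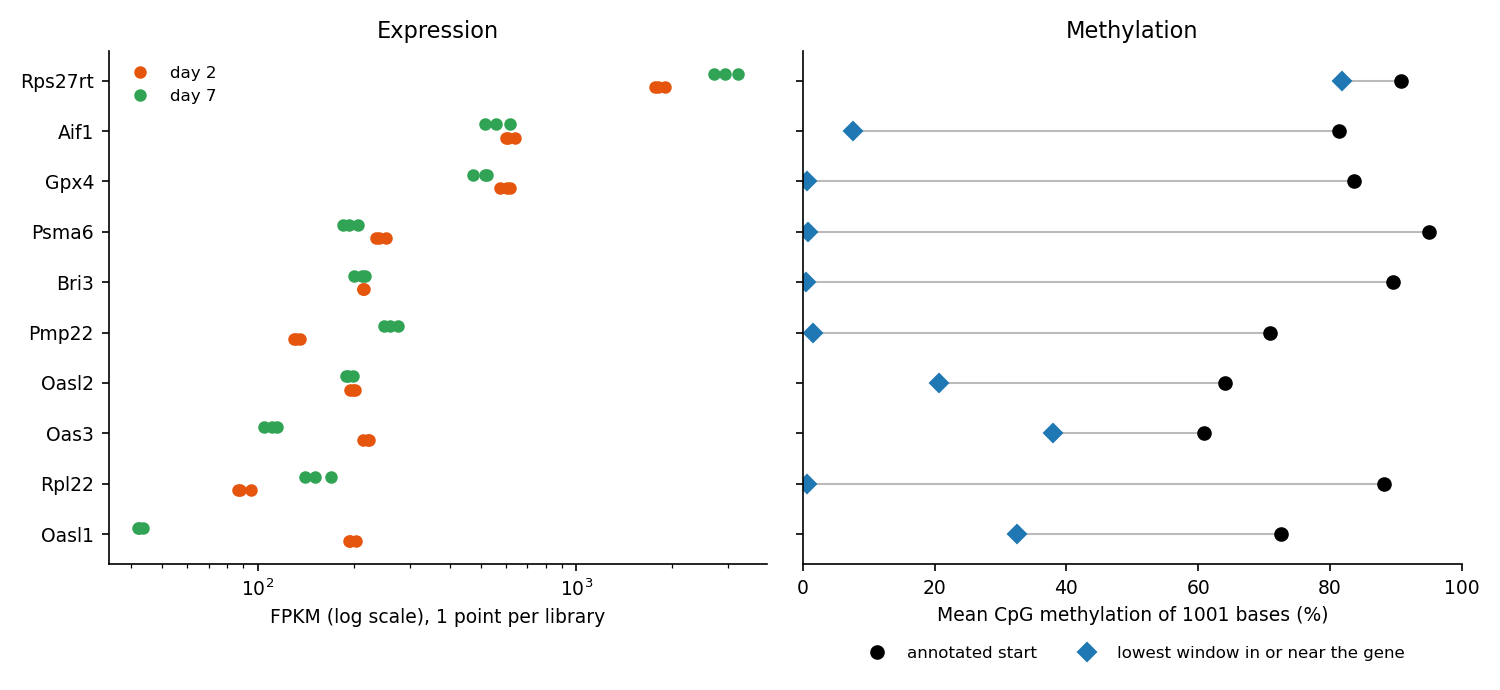
The 10 most expressed genes with a high start: left, FPKM on a log scale, 1 point per library, with day 2 and day 7 offset; right, methylation (%) of the annotated start (circles) and of the lowest window of the same width from 5000 bases upstream to the gene end (diamonds). For 6 genes the diamond lies under 8%, and for Rps27rt, Oasl2, Oas3 and Oasl1 it lies above 20%.

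For 64 of the 158 expressed high-start genes neither another listed start nor any searched window, each with at least 10 listed CpGs, was low. Beside Rps27rt, the most expressed were Oasl2, Oas3 and Oasl1 of the oligoadenylate synthetase family, Il18bp, an interferon-induced antagonist of interleukin-18, Slfn1, a Schlafen family gene, and Ifi44; genes outside the lists were named here after their values were seen. Oasl2 had 195, 201 and 198 FPKM at day 2 and 198, 189 and 192 FPKM at day 7 with a start at 64.1% over 18 CpGs and a lowest window at 20.6%. Oasl1 (chromosome 5, 114923240 to 114937911) had 204, 193 and 195 FPKM at day 2 and 43.6, 42.2 and 42.1 FPKM at day 7 with a start at 72.6% over 27 CpGs and a lowest window at 32.5%. Slfn1 (chromosome 11, 83116820 to 83122670) had 111, 116 and 111 FPKM at day 2 and 13.6, 12.9 and 12.1 FPKM at day 7 with 77.96% at the start and no window under 74.7%. The libraries of the days did not overlap for Oasl1 and Slfn1.

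Expression was compared between the days to see how genes that changed in culture were placed on the methylome. With limma on log2(FPKM + 1), at a Benjamini-Hochberg adjusted p under 0.05 and a log2 change of at least 1, 527 of 11146 tested genes (4.73%) were higher at day 7 and 505 (4.53%) lower. A pseudocount of 0.1 gave 814 and 677, and a filter at 5 FPKM gave 339 and 383. Of the called genes, 345 higher and 331 lower ones were among the analysed genes. Fewer of them had low starts: 83.8% of 327 higher genes, 80.6% of 252 lower genes and 95.8% of 6870 genes that were not called, with high starts in 8.56%, 8.73% and 1.75%. The called genes were also poorer in CpGs and less expressed, with under 20 CpGs in 19.4%, 40.8% and 7.18% and a median of 6.50, 12.7 and 13.5 FPKM. At 20 CpGs or more, low starts made up 94.2%, 94.4% and 98.5%, and under 20 CpGs 19.7%, 22.6% and 34.0%. With 250 bases on each side, the low shares of higher and lower genes were 93.4% and 93.4%, and with 1000 bases 74.0% and 63.7%. Whether the start level itself changed with the day was not measured, since there is 1 methylome. In these bulk samples, fewer cells of a type and less RNA per cell cannot be told apart.

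The largest changes occurred at starts of every kind. Igfbp2, an insulin-like growth factor binding protein gene (chromosome 1, 72824480 to 72852474), rose from 2.70, 2.23 and 3.29 FPKM to 54.5, 67.3 and 62.7 FPKM (log2 change 4.07, SE 0.12, limma adjusted p = 2.04e-07) with a start at 2.33%. Sparc rose from 2.70, 2.87 and 3.11 FPKM to 35.2, 39.3 and 41.7 FPKM (log2 change 3.35, SE 0.07, limma adjusted p = 7.85e-08) with a start at 77.2% and a window at 9.88% 1821 bases into the gene. Acta2, a smooth muscle actin gene, rose from 0.616 to 0.829 FPKM up to 20.0 to 22.3 FPKM (log2 change 3.68) with a start at 82.5%. Acta2 and Sparc are also expressed by mural cells and fibroblasts, whose marker sum, of which Acta2 is a part, was also higher at day 7, as given above. None of the 5 markers reached 1 FPKM in every library, Pdgfrb stayed under 1 FPKM in all 6, and the part of other cells in these changes was not tested. Slfn4, a Schlafen family gene (chromosome 11, 83175186 to 83190216), fell from 35.6, 35.4 and 35.1 FPKM to 1.52, 1.51 and 1.36 FPKM (log2 change -3.88, SE 0.05, limma adjusted p = 1.33e-08) with a start at 84.2% and no window under 75.3%. Trib3, a stress-induced pseudokinase gene, fell from 66.3 to 74.6 FPKM down to 5.30 to 6.16 FPKM (log2 change -3.42) with a start at 2.07%. In all of these, the libraries of one day lay entirely above those of the other. H2-Q6 and Rps27 also had large changes, and both belong to families of near-identical copies whose reads may be split differently.

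Interferon-stimulated and cytokine genes fell in part. Of 16 interferon-stimulated genes tested 6 fell and 0 rose, and of 12 cytokine and chemokine genes 7 fell and 0 rose, against the 4.53% of all tested genes. Isg15 fell by 1.78 on the log2 scale (SE 0.07, limma adjusted p = 6.49e-07) and Oasl1 by 2.18 (SE 0.03, limma adjusted p = 2.24e-08), while Oasl2 had a log2 change of -0.04 and did not pass. Of 13 microglia identity genes tested 4 rose and 0 fell, against the 4.73% of all tested genes that rose. Trem2 went from 266 to 278 up to 826 to 904 FPKM, and Cx3cr1 from 1.56 to 1.65 up to 12.4 to 12.8 FPKM. Of 7 astrocyte markers tested, 5 rose and 0 fell: Gfap, an intermediate filament gene, went from 2.56 to 3.07 FPKM up to 23.3 to 30.1 FPKM, and Glul, the glutamine synthetase gene, from 74.3 to 82.0 up to 268 to 278 FPKM. The part of astrocytes in the changes between the days was not tested. Among the 64 expressed high-start genes with no low window (median 3.40 FPKM), 15 (23.4%) were lower and 13 (20.3%) higher at day 7. Among the 94 with one (median 7.52 FPKM), 7 (7.45%) were lower and 12 (12.8%) higher. Of these, the 40 without another low start (median 3.42 FPKM) had 4 lower (10%) and 8 higher (20%). The 54 that also had another low start (median 10.2 FPKM) had 3 lower (5.56%) and 4 higher (7.41%).

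Promoter letters also differed between the groups, counted as exact matches on either strand in the 250 bases before to 50 bases after the start. The core of the interferon-stimulated response element, taken as GAAA, any 2 bases and GAAA again, was found in 3.53% of all 15546 promoters, in 10 of 16 interferon-stimulated genes and in 11.2% of genes lower and 4.06% of genes higher at day 7. The Isg15 promoter printed above holds 3 matches that overlap one another. Among starts with under 20 CpGs, the core was in 12.9% of 202 expressed genes with a low start, 5.37% of 242 expressed genes with a high start and 3.42% of 2804 genes under 1 FPKM with a high start. It was in 4.39% of 114 genes under 1 FPKM with a low start and in 4.91% of all 4380 starts with under 20 CpGs. GAGGAAGT, a purine-rich site of the type bound by the myeloid factor PU.1, followed the same order: 14.9%, 5.79% and 2.53%, and 2.63% in the 114 genes under 1 FPKM with a low start. It was in 4.32% of all starts with under 20 CpGs and 3.18% of all promoters. GGGCGG, a GC box that contains 1 CpG, was in 9.46% of genes listed at 0 and 69.9% of Q3, and TATAAA, the TATA box, in 29.8% and 5.57%. The class at 0 holds the many olfactory and vomeronasal receptor genes counted above, and the shares without them were not taken. CCAAT was in 37.4% to 41.9% of every class. These are matches of letters, not sites shown to be bound.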

How the data were processed

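CpG methylation was measured in 1 control microglia library, by bisulfite treatment and post-bisulfite adaptor tagging per the labels' protocols, and mRNA in 6 control libraries. The authors deposited, for each CpG, the methylated fraction, printed here in percent; read numbers are not listed, and for this library aligner and caller were not given in the sources. RNA values are gene FPKM computed by the authors with TopHat, Bowtie2, Cufflinks and Cuffdiff on mm10, per the submitters' processing notes, with no versions. FPKM keep no read totals; the worth of 1 read, from the spacing of low values, was 0.933 to 1.13 times that of day 2 replicate 1.

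Of 24293 symbols, 24121 matched RefSeq (mm10, GRCm38.p6), 717 of the analysed ones by a synonym, 4 repeated entries were left out, and the outermost listed start was used. Windows, minimums and classes are given with the results. limma 3.58.1 (R 4.3.3) was run on log2(FPKM + 1) with an intensity trend, for genes at 1 FPKM in at least 3 of the 6 libraries; fold changes on this scale understate changes of weak genes. The limma step and the window step were tested on simulated data. Exact permutation tests and correlations used scipy 1.17.1. Named genes were up to 4 members per list by FPKM and by highest and lowest start, the 10 most extreme of each ranking described, and a panel for sequences. The members, the 24 gene lists and the tests were chosen with earlier results of these data known. Alternatives covered windows, CpG minimums, thresholds, days, filters, pseudocount, normalization, overlapping genes and each library left out. Chromatin immunoprecipitation samples were not analysed here.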

Additional observations from a re-analysis of the deposited data

How the results depend on the processing

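The direction of the body relation depended on the silent genes: among genes at 1 FPKM in 3 libraries only, the Spearman correlation of body level and expression was -0.025 instead of 0.52. That of the gene end was likewise -0.01 among genes at 1 FPKM or above, and that of the start was 0.01 with 3 to 9 CpGs. Of the alternatives, 139 stayed within a bound, 70 moved further and 1 reversed. The bound was the standard deviation over the 6 libraries for correlations and 200 bases for widths. For shares it was the 95% Wilson interval, and for counts 1.5 times the count. That standard deviation takes in the difference between the days, and the interval takes genes as independent, so neither is a replicate error. All 72 that left out 1 library stayed within, though they share their other libraries with the main result. The causes were not tested.

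The Spearman correlation of the start with expression, -0.58, was -0.53 and -0.58 (-0.576) with 250 and 1000 bases on each side, -0.66 and -0.48 with minimums of 3 and 20 CpGs, -0.61 without starts within 1000 bases of another, -0.13 among genes at 1 FPKM in 3 libraries, and, chosen after seeing the data, -0.60 with the lowest listed start and -0.55 in protein-coding genes. Low starts at 0, under 1 FPKM and in Q4 were 41.3%, 78.01% and 98.7% with 250 bases, 11.4%, 48.5% and 89.3% with 1000 bases, 9.27%, 51.8% and 93.5% with 3 CpGs, 48.7%, 80.3% and 98.7% with 20 CpGs, and 16.1%, 53.0% and 92.6% at limits of 10% and 80%. With day 2 or day 7 alone they were 25.2% and 24.0% at 0 and 65.0% and 65.1% under 1 FPKM; under 1 FPKM, 57.6% without neighbouring starts and 64.2% in protein-coding genes; in Q4, 97.3% by the lowest start. High starts at 0 and in Q4 were 44.5% and 0.349% with 250 bases, 74.9% and 2.46% with 1000, 70.1% and 2.53% with 3 CpGs, 36.0% and 0.176% with 20 CpGs, 28.5% and 0.606% at limits of 10% and 80%; at 0, 59.2% and 60.4% with day 2 or day 7 alone; in Q4, 0.601% by the lowest start.

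The Spearman correlation of the body was 0.54 (0.544) from 5000 bases inward, 0.54 (0.536) without overlapping genes, 0.51 (0.507) with day 7 alone, and 0.46 in the strand-free interior of 15828 genes on chromosomes 1 to 19, chosen after seeing the data. That of the end was 0.29 (0.293) and 0.39 with 250 and 1000 bases, 0.36 (0.364) and 0.29 (0.285) with 3 and 10 CpGs, and 0.36 (0.364) without ends near a start. The median low stretch at 0 was 2500 bases to the 30% level and 2900 bases in bins of 100 bases. Genes higher at day 7 numbered 814 with pseudocount 0.1 and 339 at 5 FPKM. Low starts of higher and lower genes were 93.4% (93.38%) and 93.4% (93.43%) with 250 bases and 74.0% and 63.7% with 1000. With 250 bases, low shares were 100% for pan-myeloid, myeloid factor, neuronal, proneural, homeobox and endothelial lists, 80% for cytokines (23.1% with 1000), 77.8% for interferon-stimulated genes and 0% for olfactory receptors.

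Leaving out 1 library gave Spearman correlations for the start of -0.580 (-0.5804 to -0.5799), Spearman correlations for the body of 0.5155 to 0.5167, Spearman correlations for the end of 0.3387 to 0.3394, low shares of 21.3% to 21.8% at 0, 62.6% to 63.3% under 1 FPKM and 96.0% in Q4, high shares of 63.0% to 63.4% and 1.32%, 513 to 540 higher and 496 to 504 lower genes, and low shares of 83.1% to 84.5% and 79.6% to 81.5% among them. With a replicate block, 527 genes were higher and 511 lower, 526 and 505 of them shared with the fit without it, and low shares were 83.8% and 80.7%; the numbers share no known source. Deviations from the day means correlated at 0.0613, -0.0259 and -0.16 in same-numbered libraries, so the numbers were not taken as pairs. No depth per CpG is given, so the error of single levels is unknown, and 3 libraries a day cannot give an exact p under 0.1.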
